A study of Mus musculus with 8 samples.

Results

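Gene expression in the palate of newborn mice was compared between 2 arrays of pups whose dams received nicotine at 1.5 mg/kg/day during pregnancy and 2 arrays of pups whose dams received saline. These 4 arrays were chosen by their titles from the 8 arrays of the study, which also holds 2 arrays each of nicotine at 3.0 and 4.5 mg/kg/day. All animals were BALB/c mice, an inbred albino strain, and were sampled on postnatal day 1. The tissue is labelled as the rear part of the palate. Dams of both groups carried an osmotic minipump, an implant under the skin behind the shoulder that delivers its contents at a steady rate, filled with nicotine or with sterile saline. The wound clip was taken out after 14 days, and birth followed without intervention at about 21 days. The labels call the 2 arrays of a group biological replicates, and also speak of 2 pups, without saying whether each array held 1 pup or 2 or how many litters were used. The p-values therefore measure the spread between samples within the groups, taken from all 8 arrays of the study. Whether that is a spread between pups or between litters is not known.

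Nicotine acts on nicotinic acetylcholine receptors, ion channels built from several subunits. The form in skeletal muscle clusters under the nerve ending and starts contraction, and neurons and some epithelia use other subunits. The rear of the palate forms the soft palate, a fold of skeletal muscle and connective tissue with oral epithelium on its lower face and mucous glands. The shelves that make the palate fuse before birth, in a process that needs the growth factor Tgfb3.

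Each array reported an intensity for every probe set, a group of short DNA probes for a transcript. Levels below are log2(intensity + 16) after the arrays were brought to the same distribution, and a level near 4 means almost no signal. Differences are nicotine 1.5 minus saline on that scale, with the standard error of a limma fit that takes its spread from all 8 arrays. A gene was called higher or lower at an adjusted p under 0.05, with the Benjamini-Hochberg adjustment over 34945 probe sets that name 1 gene. Of these, 284 were higher (0.813%) and 560 were lower (1.60%). With the intensities as deposited, without bringing the arrays to the same distribution, 142 of 821 called probe sets were higher. For 18193 genes, the probe set brightest on average over the 8 arrays stood for the gene, and 167 genes (0.918%) were called higher and 315 (1.73%) lower. The groups did not overlap in any of the 482 called genes. Over all genes, called or not, both nicotine arrays lay above both saline arrays in 25.2% and below them in 20.9%, and the median difference was 0.02.

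The calls depend on the arrays of the other doses, which enter the shared estimate of spread. With the nicotine 1.5 and saline arrays alone in the fit, 10 probe sets were called, all lower. Without either array of nicotine 3.0, 135 were called, 9 higher and 126 lower. Leaving out each of the 8 arrays in turn, 81 of the 315 lower genes kept their call every time, but only 1 of the 167 higher genes did, Mymk. Without saline replicate 1 the count of called probe sets was 1785, without nicotine 1.5 replicate 1 it was 263, and without either nicotine 4.5 array it was 319. More of the falls than of the rises held up in this way. A single array left in a higher dose adds nothing to the spread. Leaving out either array of nicotine 3.0 therefore gave the same fit, as did either array of nicotine 4.5. The 8 fits are thus fewer than 8 distinct checks.

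The labelled tissue was checked against marker genes, and so were the arrays against each other. Skeletal muscle genes were among the strongest signals, with median levels of 11.11 and 11.67 in the nicotine 1.5 arrays and 10.60 and 10.00 in the saline arrays for 27 contraction genes. The 20 genes of palate and jaw patterning had medians of 5.64 and 5.14, against 5.43 and 5.42 in saline. Meox2 and Osr1 were well above background, while Pax9 and Tbx22 were at 4.98 or less in all 4 arrays. Genes of the stomach, intestine, liver, lung and heart were high in some arrays and near background in others, as the plot of list medians by array shows. Arrays labelled palate thus held transcripts of other organs. Whether tissue of those organs was in the samples is not stated in the labels and was not tested. This bears on every difference described below, not only on those of digestive genes. The ratio of 3′ to 5′ signal of Actb, a measure of RNA integrity in which a higher value means more breakage, was 1.39 and 1.20 in the nicotine 1.5 arrays, against 1.74 and 1.65 in saline. Saline replicate 1 was the only array of the 4 with Y-linked signal, with Eif2s3y at 8.26, against 4.15 and 4.51 in the nicotine 1.5 arrays and 4.37 in saline replicate 2.

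**Figure D1:**
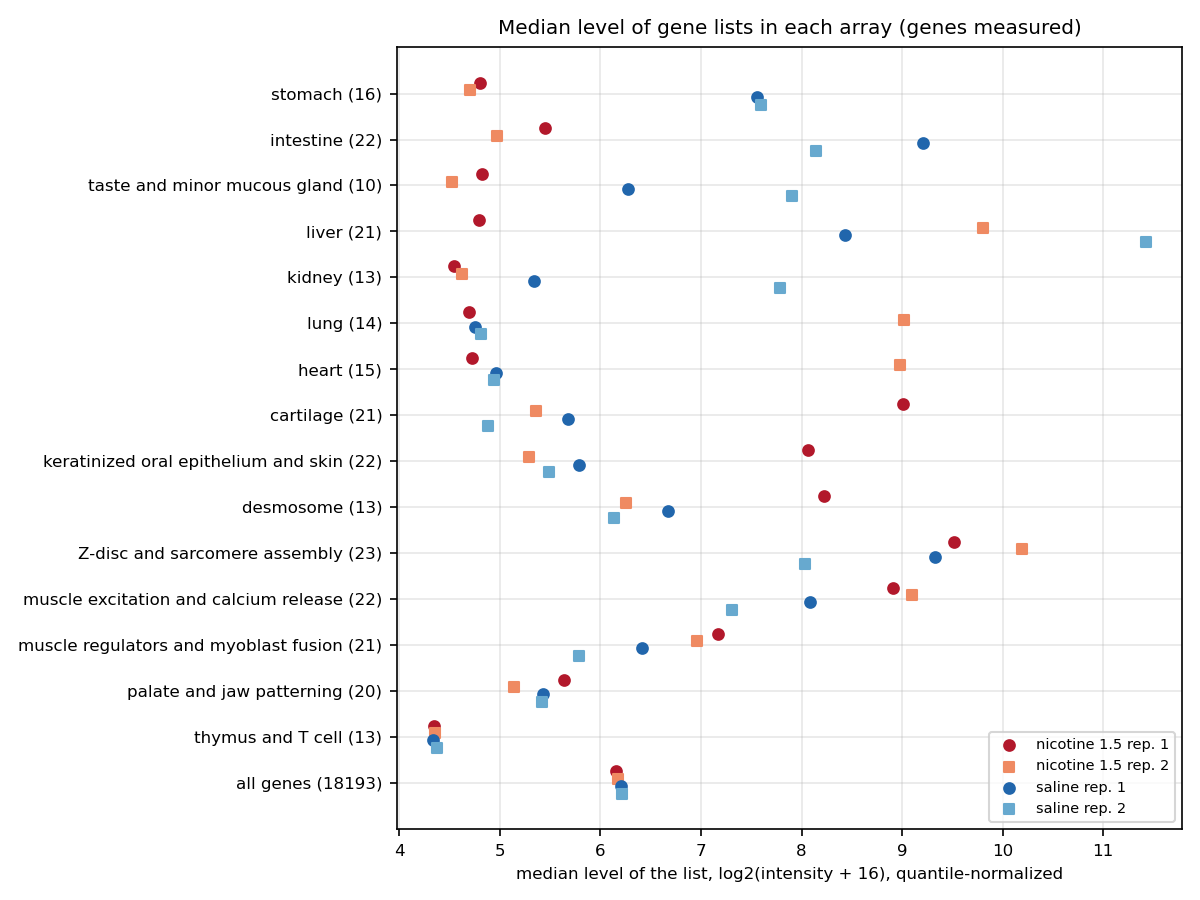
Median level of each gene list in each array, as log2(intensity + 16) after quantile normalization, with the number of genes measured in parentheses. Stomach genes stood at 4.80 and 4.70 in the nicotine 1.5 arrays against 7.56 and 7.60 in saline, while lung and heart genes were high in nicotine 1.5 replicate 2 alone and cartilage genes in replicate 1 alone.

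Genes of the stomach lining were nearly absent from both nicotine 1.5 arrays and abundant in both saline arrays. Of 16 measured stomach genes, 9 were called lower, against 1.73% of all genes, and none higher. The median difference was -2.74, against 0.02 over all genes. Cym, the milk-clotting protease of the suckling stomach, had deposited intensities of 11.9 and 10.4 in the nicotine 1.5 arrays, against 5168 and 5000 in saline. On the log2 scale Cym was at 4.82 and 4.70, against 12.42 and 12.34 in saline, a difference of -7.62 ± 0.14 and the largest of all genes in either direction (adjusted p = 7.36e-06). Pga5, the zymogen of the protease pepsin, was at 5.05 and 5.38, against 11.54 and 11.23 in saline (difference -6.17 ± 0.24, adjusted p = 0.000166). For both genes the groups were far apart and the arrays within a group close together.

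The stomach genes that fell came from several cell types of that organ. Gkn1 and Gkn2 encode gastrokines, secreted proteins of the surface mucous cells, and Gkn2 was at 5.46 and 5.38, against 9.88 and 9.95 in saline (difference -4.50 ± 0.18, adjusted p = 0.000166). Tff1, a trefoil peptide that these cells secrete with mucus, was at 6.63 and 6.36, against 9.92 and 10.11 in saline (difference -3.53 ± 0.16, adjusted p = 0.000267). Acid-secreting parietal cells were represented by Atp4a and Atp4b, the subunits of the proton pump. Atp4b was at 4.68 and 4.14, against 7.86 and 8.04 in saline (difference -3.54 ± 0.20, adjusted p = 0.000816). Ghrl, which encodes the appetite hormone ghrelin, was the weakest of the 9, at 4.31 and 4.40, against 5.49 and 5.81 in saline. It was the only one of the 9 that lost its call in some of the 8 fits with an array left out. Pgc, Lipf and Gast were between 4.09 and 4.93 in all 4 arrays. Summed over the list, intensities were 286 and 462 in the nicotine 1.5 arrays, against 11612 and 11821 in saline.

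The start regions of 2 of these genes are shown because they hold a textbook core promoter element and differ in that from the muscle genes shown further on. Both are from RefSeq, build GRCm38.p6, from 250 bases before to 50 after the start, with the letters TATAAA in capitals. Cym lies at chr3:107221683-107221982 on the minus strand and Gkn2 at chr6:87373115-87373414 on the plus strand.
Cym: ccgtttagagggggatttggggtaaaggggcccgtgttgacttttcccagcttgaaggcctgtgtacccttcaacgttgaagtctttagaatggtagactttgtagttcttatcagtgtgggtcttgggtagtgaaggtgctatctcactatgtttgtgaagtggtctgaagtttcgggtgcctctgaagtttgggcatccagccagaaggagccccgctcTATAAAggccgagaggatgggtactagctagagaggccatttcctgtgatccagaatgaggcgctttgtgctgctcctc
Gkn2: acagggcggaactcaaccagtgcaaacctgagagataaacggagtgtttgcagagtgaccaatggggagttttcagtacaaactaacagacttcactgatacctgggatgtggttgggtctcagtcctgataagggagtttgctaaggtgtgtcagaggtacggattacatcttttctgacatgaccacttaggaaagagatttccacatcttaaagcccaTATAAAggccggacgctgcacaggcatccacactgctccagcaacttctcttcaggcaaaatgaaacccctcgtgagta
In both, TATAAA begins at position -29 from the start. Searched on both strands, it occurs in 13.6% of 32851 promoters of this length. Neither sequence holds CANNTG. These matches describe the letters in the window.

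Genes of the absorbing cells of the small intestine fell with them. Of 22 measured intestine genes, 14 were called lower, against 1.73% of all genes, and none higher. All 22 differences were below 0, with a median of -3.31. Fabp2, a carrier of fatty acids inside these cells, was at 7.34 and 6.25 in the nicotine 1.5 arrays, against 12.27 and 11.73 in saline (difference -5.21 ± 0.35, adjusted p = 0.00159). Apoa4, an apolipoprotein released with absorbed fat, was at 6.72 and 7.03, against 12.06 and 11.54 in saline (difference -4.93 ± 0.23, adjusted p = 0.000286). Lct, the lactase that splits milk sugar, was at 4.95 and 4.94, against 10.04 and 8.51 in saline (difference -4.32 ± 0.43, adjusted p = 0.0078). Saline replicate 1 was the higher of the saline arrays for Lct, and the same order held for Alpi, the intestinal alkaline phosphatase, at 4.88 and 5.46 against 10.77 and 9.21. Leap2, a peptide made by liver and gut, ran the other way in saline, at 4.41 and 4.94 against 9.06 and 9.36 (difference -4.53 ± 0.21, adjusted p = 0.000286).

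Digestive enzymes and transporters of the intestinal brush border were lower in the same manner. Mep1a and Mep1b, the subunits of the protease meprin, differed by -4.33 ± 0.29 and -3.34 ± 0.24 (adjusted p = 0.00157 and 0.00225). Slc7a9, a carrier of cystine and basic amino acids, was at 4.66 and 4.61, against 9.70 and 8.20 in saline (difference -4.32 ± 0.43, adjusted p = 0.00792). Cubn and Amn together form the receptor for the vitamin B12 complex in gut and kidney. Cubn was at 5.33 and 5.54, against 10.16 and 8.89 in saline, and Amn was at 5.04 and 4.85, against 9.92 and 8.25. Amn lost its call without nicotine 1.5 replicate 1 or either nicotine 3.0 array. Cubn is on the kidney list as its only called member. Umod, a defining kidney gene on that list, was at 4.40 and 4.37 in the nicotine 1.5 arrays, against 5.24 and 9.04 in saline. The part of kidney tissue in the level of Cubn was not tested. Of the 14 intestinal calls, 9 stayed with every array left out in turn, among them Fabp2, Apoa4, Lct, Alpi, Mep1a, Mep1b, Mttp, Krt20 and Leap2. None stayed in the fit of the 4 arrays alone.

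Fat transport and pancreatic genes also appeared among the 25 largest falls. Mttp, which loads fat onto lipoproteins, was at 5.58 and 6.45 in the nicotine 1.5 arrays and above 10 in both saline arrays (difference -4.62 ± 0.38, adjusted p = 0.00401). Apoc3, an apolipoprotein of liver and gut, was at 5.86 and 5.68, against 10.66 and 9.72 in saline (difference -4.43 ± 0.29, adjusted p = 0.0015). Apoc2 and Fabp1, which the liver expresses as well, were intermediate in nicotine 1.5 replicate 2. Fabp1 was at 5.93 and 9.01, against 11.97 and 12.50 in saline, and Apoc2 was at 5.43 and 7.67, against 10.23 and 11.56. Both lost their calls without saline replicate 2 or any 1 array of the higher doses, Fabp1 also without saline replicate 1 and Apoc2 without nicotine 1.5 replicate 1. Clps, the colipase that pancreatic lipase needs, was at 4.63 and 4.54, against 9.10 and 8.96 in saline (difference -4.44 ± 0.14, adjusted p = 0.000149). It was the only one of 10 pancreas genes that was called, against 1.73% of all genes called lower. It stayed called in the fit of the 4 arrays alone, as did Cym, Pga5, Gkn2, Bpifb1, Anxa10 and 2210407C18Rik.

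Secreted proteins of mucous glands and airways fell as well. Bpifb1, a lipid-binding protein of oral and airway secretions, was at 5.26 and 4.87, against 10.19 and 10.32 in saline (difference -5.19 ± 0.22, adjusted p = 0.000198). Muc5b, a gel-forming mucin of salivary glands and airways, was at 4.69 and 4.19, against 8.62 and 8.70 in saline (difference -4.22 ± 0.33, adjusted p = 0.00314). Tff2, a trefoil peptide of stomach mucous neck cells, was at 4.20 and 4.43, against 6.44 and 7.12 in saline (difference -2.46 ± 0.30, adjusted p = 0.0154). These were 3 of the 10 members of the mucous gland list, against 1.73% of all genes called lower. Tff2 lost its call without nicotine 1.5 replicate 1 or either nicotine 3.0 array. The stomach and intestine lists moved with these 3 genes over the same arrays. The part of those tissues in these differences was not tested. In bulk samples, fewer cells of a type and less RNA per cell cannot be told apart.

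Milk protein genes made up a separate group. Csn2, which encodes beta-casein, was at 4.38 and 4.16, against 9.36 and 8.00 in saline (difference -4.41 ± 0.45, adjusted p = 0.00862). The other milk genes were looked up after Csn2 had been seen among the largest falls. Of 9 milk genes with Csn2 included, 5 were called lower, Csn2 among them, against 1.73% of all genes. Csn1s1, another casein, was at 4.14 and 4.44, against 8.68 and 7.73 in saline (difference -3.92 ± 0.31, adjusted p = 0.00314). Wap, the whey acidic protein, was at 4.13 and 4.10, against 7.70 and 6.50 in saline (difference -2.99 ± 0.35, adjusted p = 0.0136). Csn1s2a and Glycam1 fell by 3.45 and 1.76, and saline replicate 1 was the higher saline array for all 5. Csn3, Csn1s2b, Lalba and Btn1a1 stayed between 4.09 and 5.80 in all 4 arrays and were not called. Csn2 and Csn1s1 kept their calls with any array left out, Wap lost its call without nicotine 1.5 replicate 1 or either nicotine 3.0 array, and Csn1s2a and Glycam1 kept theirs in 2 of the 8 fits.

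**Figure D2:**
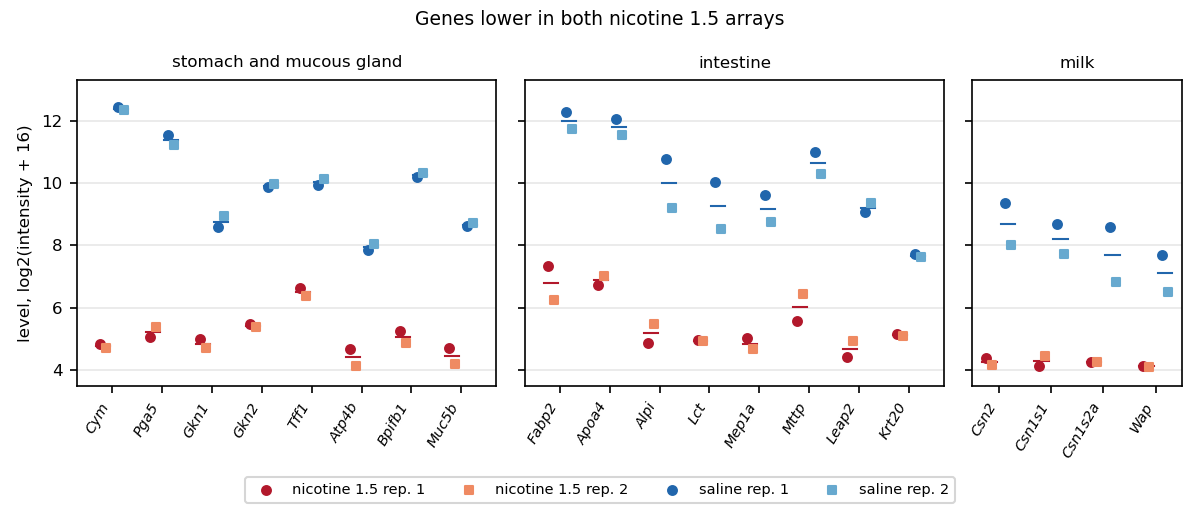
Levels of genes called lower, as log2(intensity + 16), with a point for each array and a short line at each group mean, nicotine 1.5 left of saline. Both nicotine 1.5 arrays lay below both saline arrays for every gene shown, from Cym at 4.82 and 4.70 against 12.42 and 12.34 to Wap at 4.13 and 4.10 against 7.70 and 6.50.

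Genes of drug handling, antioxidant defence and sterol synthesis were lower in smaller numbers. In the same arrays the stomach and intestine lists were lower, with medians of -2.74 and -3.31. The part of those tissues in these falls, and in those of the junction and folding genes below, was not tested. Sult1d1 encodes a sulfotransferase, and it was at 4.32 and 5.29, against 9.19 and 9.13 in saline (difference -4.36 ± 0.29, adjusted p = 0.00157). Ugt2b34, a glucuronosyltransferase, was at 5.60 and 6.76, against 10.07 and 10.22 in saline (difference -3.97 ± 0.34, adjusted p = 0.00501). It and Cyp3a13 were the only members called among 21 genes of cytochrome P450 and drug metabolism, against 1.73% of all genes called lower. Cyp3a13 lost its call without saline replicate 2 or any 1 array of the higher doses. Nqo1, a quinone reductase and classical target of the antioxidant regulator NRF2, was at 5.21 and 5.82, against 9.10 and 8.64 in saline (difference -3.35 ± 0.24, adjusted p = 0.00229). Nqo1 was the only called member of 26, against 1.73% of all genes called lower. Both nicotine arrays were below both saline arrays in 19 of the 26, against 20.9% of all genes. The list median was -0.65. Gsr and Gclc, which serve glutathione, stood at -1.11 ± 0.22 and -1.06 ± 0.25 and did not pass (adjusted p = 0.0542 and 0.0797).

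Of 14 genes of cholesterol synthesis and its control, 2 fell, against 1.73% of all genes, and none rose. Both nicotine 1.5 arrays were below both saline arrays in 11, against 20.9% of all genes. Sc5d, a sterol desaturase, was at 6.42 and 5.89, against 7.83 and 8.25 in saline (difference -1.88 ± 0.22, adjusted p = 0.0148). Cyp51, a sterol demethylase, was at 7.82 and 7.18, against 9.02 and 8.91 in saline (difference -1.47 ± 0.24, adjusted p = 0.0335). The list median was -1.08. Another probe set of Sc5d had a difference of the opposite sign, 0.16, and neither call stayed without a nicotine 3.0 array.

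Epithelial junction genes fell in part. Cldn8, a tight junction claudin, was at 5.71 and 4.50, against 8.77 and 8.47 in saline (difference -3.51 ± 0.37, adjusted p = 0.0093). Elf3, an epithelial transcription factor, was at 5.79 and 5.15, against 7.61 and 7.50 (difference -2.08 ± 0.27, adjusted p = 0.0183). With Marveld2, a protein of the contacts between 3 cells, they were the 3 members called of 25, against 1.73% of all genes. Both nicotine arrays were below both saline arrays in 15 of the 25, against 20.9% of all genes. Epcam, an epithelial adhesion molecule, was below both saline arrays in both nicotine arrays and did not pass (difference -2.75 ± 0.54, adjusted p = 0.0542). Cdh1, the main epithelial cadherin, was at 9.17 and 8.93, against 10.56 and 10.17, with an adjusted p of 0.157. Lrat, which turns retinol into its storage form, fell by 1.76 to 4.54 and 4.45, against 6.22 and 6.29 in saline (adjusted p = 0.00501). Cldn8 and Lrat stayed called with any array left out, while Elf3 and Marveld2 did not.

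A few protein folding genes were lower. Hsp90b1, a chaperone of the endoplasmic reticulum, was at 10.26 and 10.34, against 11.07 and 11.19 in saline (difference -0.84 ± 0.14, adjusted p = 0.0369). Pdia4, a disulfide isomerase of that compartment, differed by -1.31 ± 0.19 (adjusted p = 0.0257). Another probe set of Hsp90b1 differed by more, -1.95. Hsp90b1 and Pdia4 were the 2 called of 22 genes on the list, against 1.73% of all genes called lower. The list median was -0.26. Both nicotine arrays were below both saline arrays in 9 of the 22, against 20.9% of all genes. In 6 they were above, against 25.2% of all genes. Ndrg1, a hypoxia-induced gene, was at 8.30 and 8.62, against 9.84 and 10.02 (difference -1.46 ± 0.22, adjusted p = 0.0285), and Ifit1, an interferon-induced gene, fell by 2.20. All 4 of these calls were lost without saline replicate 2, without a nicotine 1.5 array or without a nicotine 3.0 array, except that Ifit1 stayed without saline replicate 2.

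Many skeletal muscle genes had higher values in both nicotine 1.5 arrays than in both saline arrays, and a few of them passed the test. Of 22 genes of excitation and calcium release, 7 were called higher, against 0.918% of all genes, and none lower. Both nicotine arrays were above both saline arrays in 20, against 25.2% of all genes, and the median difference was 1.18. Ryr1, the calcium release channel of the muscle store, was at 9.66 and 10.13, against 8.47 and 8.20 in saline (difference 1.56 ± 0.20, adjusted p = 0.0192). Cacna1s, the voltage sensor that opens it, was at 7.82 and 8.29, against 6.73 and 6.49 (difference 1.44 ± 0.21, adjusted p = 0.025). Both groups were tight, with nicotine 1.5 replicate 2 the higher nicotine array and saline replicate 1 the higher saline array. The other probe set of Ryr1 differed by less, 0.55.

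Other members of the calcium machinery showed the same order of arrays. Tmem38a, a cation channel of the calcium store, was at 8.47 and 8.72, against 7.08 and 6.68 in saline (difference 1.72 ± 0.30, adjusted p = 0.0389). Casq1, the protein that binds calcium inside the store, was at 10.76 and 11.07, against 10.03 and 9.58 (difference 1.11 ± 0.20, adjusted p = 0.044). Jsrp1, Cacnb1 and Hrc, which belong to the same complex or store, rose by 1.41, 1.20 and 1.23. Atp2a1, the pump that refills the store, was at 11.47 and 11.72, against 10.90 and 10.65, and did not pass (difference 0.82 ± 0.18, adjusted p = 0.0669). Without either nicotine 3.0 array none of the 7 calls remained, without saline replicate 2 or nicotine 1.5 replicate 2 only 1 did, without nicotine 1.5 replicate 1 there were 3, and without either nicotine 4.5 array 2.

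Among the contractile proteins, the called members were troponins of slow fibres. Tnni1, the inhibitory troponin of slow muscle, was at 10.61 and 11.15, against 9.27 and 8.44 in saline (difference 2.03 ± 0.29, adjusted p = 0.0259). Tnnc1, the calcium-binding troponin of slow and heart muscle, was at 10.45 and 11.22, against 9.51 and 8.91 (difference 1.62 ± 0.30, adjusted p = 0.0457). Tnnt1, the slow troponin that binds tropomyosin, was higher as well (adjusted p = 0.0405). They were the only 3 called of 27 contraction genes, against 0.918% of all genes called higher, and the list median was 0.76. Myl3, a light chain of slow and heart muscle, was at 9.69 and 11.70, against 8.24 and 7.59 in saline, and did not pass (adjusted p = 0.0632). Its level in nicotine 1.5 replicate 2 stood apart, and heart genes such as Myh6 were high in that array alone, at 11.87, against 5.38 in replicate 1. The part of heart tissue in these differences was not tested. Without either nicotine 3.0 array none of these 3 calls remained, nor without either nicotine 1.5 array.

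Proteins that build the sarcomere and join the fibre to its surroundings followed. Smyd1, a methyltransferase needed for sarcomere assembly, was at 8.66 and 9.33, against 7.51 and 7.18 in saline (difference 1.65 ± 0.27, adjusted p = 0.033), though 1 of 4 other probe sets differed in sign. Myoz1, a Z-disc protein of fast fibres, rose by 1.12 ± 0.18 (adjusted p = 0.0328). These were the 2 called of 23 Z-disc and assembly genes, against 0.918% of all genes called higher. In 19 of the 23, against 25.2% of all genes, both nicotine arrays were above both saline arrays. Sgca, a sarcoglycan of the muscle membrane, was at 8.09 and 7.82, against 6.41 and 6.25 (difference 1.62 ± 0.22, adjusted p = 0.0234), and Itga7, the laminin receptor of muscle, differed by 1.39 ± 0.16 (adjusted p = 0.0133). For Sgca and Itga7 nicotine 1.5 replicate 1 was the higher nicotine array, unlike the calcium genes. Without either nicotine 3.0 array none of these calls remained.

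Genes of myoblast fusion held the firmest rise. Mymk, the membrane protein myomaker that lets muscle precursors fuse, was at 8.39 and 8.11, against 6.35 and 6.18 in saline (difference 1.98 ± 0.17, adjusted p = 0.00512). It kept its call with any of the 8 arrays left out and lost it in the fit of the 4 arrays alone. Cdh15, a cadherin of muscle precursors, was at 7.17 and 6.96, against 5.90 and 5.67 in saline (difference 1.28 ± 0.15, adjusted p = 0.0153). With Itga7 and Chrng they were the 4 members called of 21 muscle regulators, against 0.918% of all genes called higher. The median difference of the 21 was 0.82. Enzymes of muscle energy supply rose too. Pygm, the glycogen phosphorylase of muscle, was at 9.91 and 10.44, against 8.38 and 8.53 (difference 1.72 ± 0.28, adjusted p = 0.0335). Pfkm, the muscle phosphofructokinase, rose by 1.36 ± 0.21 (adjusted p = 0.031). They were the 2 called of 20 genes, against 0.918% of all genes called higher. Of the 20, 11 were above saline in both nicotine arrays and 3 below. Over all genes these shares were 25.2% and 20.9%. None of 19 genes of muscle wasting and growth control was called. In 8 of the 19 both nicotine arrays were above both saline arrays, against 25.2% of all genes. Without either nicotine 3.0 array, Mymk alone of these kept its call.

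Other muscle genes that rose lie outside the groups above, and Mypn, Apobec2 and Capn6 were among the 25 largest rises. Mypn, the sarcomere protein myopalladin, was at 9.22 and 9.76, against 8.13 and 7.23 in saline (difference 1.81 ± 0.33, adjusted p = 0.0457). Apobec2, a muscle member of a family of cytidine deaminases, was at 11.08 and 11.26, against 9.97 and 9.25 (difference 1.56 ± 0.26, adjusted p = 0.0375). Cox6a2, the heart and muscle form of a respiratory chain subunit, was at 10.44 and 10.85, against 9.61 and 9.01 (adjusted p = 0.0458). It was the only call among 25 respiratory chain genes, against 0.918% of all genes called higher. For all 3 genes saline replicate 2 was the lowest array. Capn6, a calpain-family protein of embryonic muscle, was at 10.72 and 10.21, against 9.17 and 8.43 (difference 1.66 ± 0.28, adjusted p = 0.0375). None of these 4 calls stayed without either nicotine 3.0 array.

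**Figure D3:**
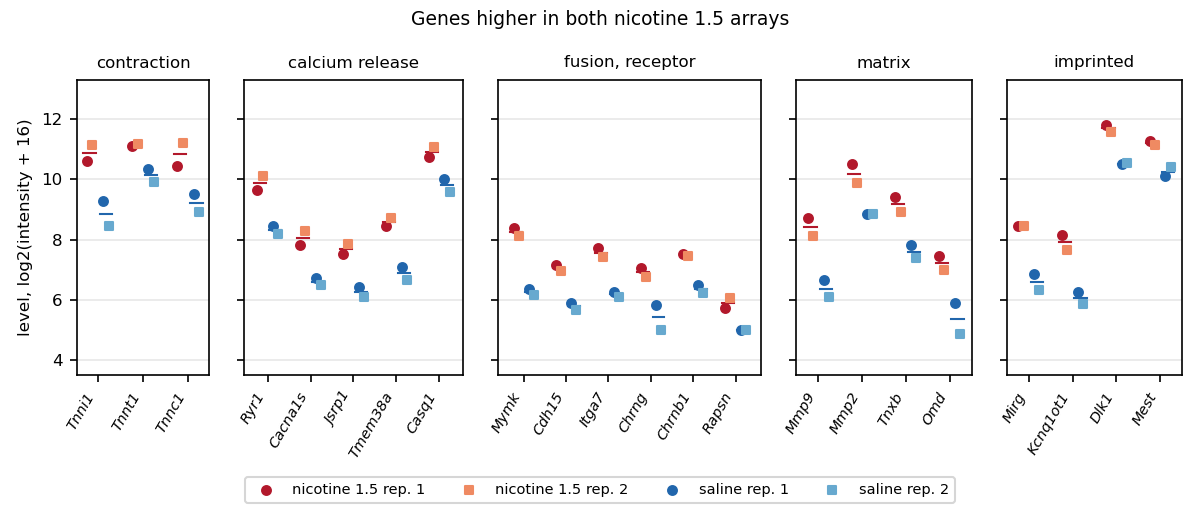
Levels of genes called higher, as log2(intensity + 16), with a point for each array and a short line at each group mean, nicotine 1.5 left of saline. The groups do not overlap for any gene shown, and the gaps are smaller than those of the digestive genes, such as 8.39 and 8.11 against 6.35 and 6.18 for Mymk.

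The receptor that nicotine binds in muscle was measured through its subunits. Chrnb1, the beta subunit, was at 7.54 and 7.45, against 6.50 and 6.23 in saline (difference 1.13 ± 0.16, adjusted p = 0.0232). Chrng, the gamma subunit of fetal muscle, was at 7.07 and 6.77, against 5.82 and 5.02 (difference 1.50 ± 0.27, adjusted p = 0.0417). Another probe set of Chrng differed by less, 0.45. Rapsn, which clusters the receptor at the synapse, was at 5.73 and 6.08, against 5.02 and 4.99 (difference 0.90 ± 0.16, adjusted p = 0.0435). Chrna1, the alpha subunit that holds most of the acetylcholine site, was at 8.42 and 8.09, against 7.77 and 6.63, and did not pass (difference 1.05 ± 0.36, adjusted p = 0.19). In all, 3 of 17 genes of the muscle receptor and synapse were called, against 0.918% of all genes called higher. Both nicotine arrays were above both saline arrays in 12, against 25.2% of all genes, and the list median was 0.55. Without saline replicate 2, either nicotine 1.5 array or either nicotine 3.0 array, none of the 3 calls remained.

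None of 18 genes of neuronal nicotinic receptors and acetylcholine supply was called, and their median difference was -0.05. Of all genes, 0.918% were called higher and 1.73% lower. Chrna3, a subunit of autonomic neurons, was at 5.59 and 5.18, against 5.35 and 5.19 in saline. Chrna7, a subunit that forms channels by itself, was at 4.48 and 4.52, against 5.24 and 4.69. The lowest adjusted p on this list was 0.145, for Slurp1, a secreted ligand of epithelial receptors, at 6.27 and 5.46, against 4.76 and 5.10. At these levels, near background, small differences are hard to measure.

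The start regions of Chrng and Tnni1 are shown because both genes are expressed in muscle and rose, and E-boxes (CANNTG) are the sites that muscle regulators such as Myod1 bind. They are from RefSeq, build GRCm38.p6, 5′ to 3′, with each CANNTG in capitals. Chrng lies at chr1:87205561-87205860 and Tnni1 at chr1:135799171-135799470, both on the plus strand. Tnni1 has 2 listed starts, and the one listed before the other is shown.
Chrng: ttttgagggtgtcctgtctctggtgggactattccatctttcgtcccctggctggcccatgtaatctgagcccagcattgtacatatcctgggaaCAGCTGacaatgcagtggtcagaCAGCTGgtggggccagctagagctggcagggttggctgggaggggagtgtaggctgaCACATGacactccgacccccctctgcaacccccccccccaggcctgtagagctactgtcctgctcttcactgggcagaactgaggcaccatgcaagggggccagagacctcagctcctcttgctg
Tnni1: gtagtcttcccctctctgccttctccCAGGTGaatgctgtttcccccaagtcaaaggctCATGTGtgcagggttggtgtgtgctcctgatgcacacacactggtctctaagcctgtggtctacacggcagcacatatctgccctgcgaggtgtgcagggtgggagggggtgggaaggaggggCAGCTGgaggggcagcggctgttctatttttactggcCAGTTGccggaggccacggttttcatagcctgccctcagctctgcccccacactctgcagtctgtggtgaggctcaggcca
Chrng holds 3 matches, 2 of them CAGCTG, and Tnni1 holds 4, of which 1 is CAGCTG. The pattern reads the same on both strands. CANNTG occurs in 72.3% of the 32851 promoters and CAGCTG, which it includes, in 16.3%. Neither sequence holds TATAAA.

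Matrix proteases and structural proteins of connective tissue rose in a few members. Mmp9, a gelatinase of osteoclasts and white blood cells, was at 8.71 and 8.13, against 6.66 and 6.09 in saline (difference 2.04 ± 0.37, adjusted p = 0.0438), the largest rise among called genes. Mmp2, the gelatinase of connective tissue, was at 10.50 and 9.87, against 8.86 and 8.86 (difference 1.32 ± 0.25, adjusted p = 0.0473). They were the 2 called of 22 proteases and inhibitors, against 0.918% of all genes called higher. Mmp13 and Ctsk, a collagenase and the osteoclast protease cathepsin K, stood at 2.35 ± 0.53 and 2.01 ± 0.48 and did not pass (adjusted p = 0.0746 and 0.0859).

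Among matrix proteins, Tnxb, the tenascin of tendon and skin, was at 9.43 and 8.91, against 7.82 and 7.38 in saline (difference 1.58 ± 0.23, adjusted p = 0.0267). Omd, the bone proteoglycan osteomodulin, was at 7.46 and 6.98, against 5.90 and 4.87 (difference 1.83 ± 0.34, adjusted p = 0.0451). Mfap4, a microfibril protein, differed by 1.65 ± 0.27 (adjusted p = 0.0336). Of 23 collagen genes, 2 were called higher, Col22a1 and Col23a1, against 0.918% of all genes. Their differences were 1.68 and 1.05. Differences were above 0 in 22 of the 23, against 9598 of all 18193 genes. Both nicotine arrays were above both saline arrays in 14 of the 23, against 25.2% of all genes. Col22a1, found where muscle meets tendon, was at 7.42 and 7.40, against 6.24 and 5.24. Other probe sets gave smaller differences, 0.92 and 0.26 for Col22a1 and 0.21 and 0.79 for Col23a1. Neither collagen call, nor those of Tnxb, Omd, Mfap4, Mmp9 and Mmp2, stayed without saline replicate 2 or either nicotine 3.0 array.

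Several imprinted genes, which are read from the chromosome of 1 parent, were higher. Of 20 measured, 4 were called higher, against 0.918% of all genes, and none lower. Both nicotine arrays were above both saline arrays in 15 of the 20, against 25.2% of all genes. Mirg, a long RNA of the Dlk1 and Meg3 cluster, was at 8.46 and 8.47, against 6.86 and 6.34 in saline (difference 1.87 ± 0.22, adjusted p = 0.0151). Dlk1, a growth regulator of the same cluster, was at 11.82 and 11.59, against 10.52 and 10.53 (difference 1.18 ± 0.17, adjusted p = 0.0255). Levels within each group were close for Dlk1, and Meg3 of that cluster did not pass (adjusted p = 0.234). Kcnq1ot1, a long RNA that silences its neighbours, was at 8.17 and 7.65, against 6.26 and 5.86 (difference 1.84 ± 0.28, adjusted p = 0.0292). Other probe sets of Kcnq1ot1 differed by 0.20 and 1.75. Mest, an hydrolase-like protein of growing mesoderm, rose by 0.95 ± 0.17 (adjusted p = 0.0413). None of the 4 calls stayed without nicotine 1.5 replicate 1 or either nicotine 3.0 array.

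Regulators of signalling, stress and daily rhythm gave single calls. Over all genes, 0.918% were called higher and 1.73% lower. Fgfr1, a receptor of fibroblast growth factors, was at 9.02 and 8.60, against 7.54 and 6.98 in saline (difference 1.55 ± 0.25, adjusted p = 0.0345). Other probe sets of Fgfr1 differed by 1.19 and 0.40. Notch3, a Notch receptor of vessel walls, differed by 1.14 ± 0.20 (adjusted p = 0.0392), and these were 2 of 30 genes of Hedgehog, FGF and Notch signalling. Cdkn1a, the cell cycle inhibitor p21, was at 10.07 and 9.92, against 8.92 and 8.74 (difference 1.17 ± 0.16, adjusted p = 0.0234), while none of 30 cell division genes was called. Nr4a1, an early response receptor, was at 7.59 and 7.88, against 6.63 and 6.52 (difference 1.16 ± 0.16, adjusted p = 0.0234), the only call among 20 immediate early genes. Usp2, a deubiquitinase under clock control, was at 8.59 and 9.47, against 7.11 and 7.20 (difference 1.87 ± 0.29, adjusted p = 0.0312). Per1, a core clock gene, was at 7.02 and 8.14, against 5.94 and 6.09, and did not pass (adjusted p = 0.0713). All 5 calls were lost without either nicotine 3.0 array.

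Beside every rise described here, the stomach and intestine lists were lower in the same 2 arrays, and the actin ratio given above was lower as well. Their part in the rises was not tested.

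The nicotine 1.5 arrays were set against saline one by one, since they differ from each other. Replicate 1 was at least 1 log2 unit above both saline arrays in 467 genes (2.57%) and below both by that distance in 604 (3.32%). Replicate 2 was above in 392 (2.15%) and below in 474 (2.61%). Both arrays were above in 78 genes, of which 57 were called, and both were below in 330, of which 237 were called. Replicate 1 alone was above in 389 and below in 273 genes, and replicate 2 alone was above in 313 and below in 144. These counts are a description without a test. The 2 nicotine arrays were 1 unit or more apart in 1097 genes and the 2 saline arrays in 1603. At 3 units or more the counts were 154 for the nicotine arrays and 139 for the saline arrays.

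**Figure D4:**
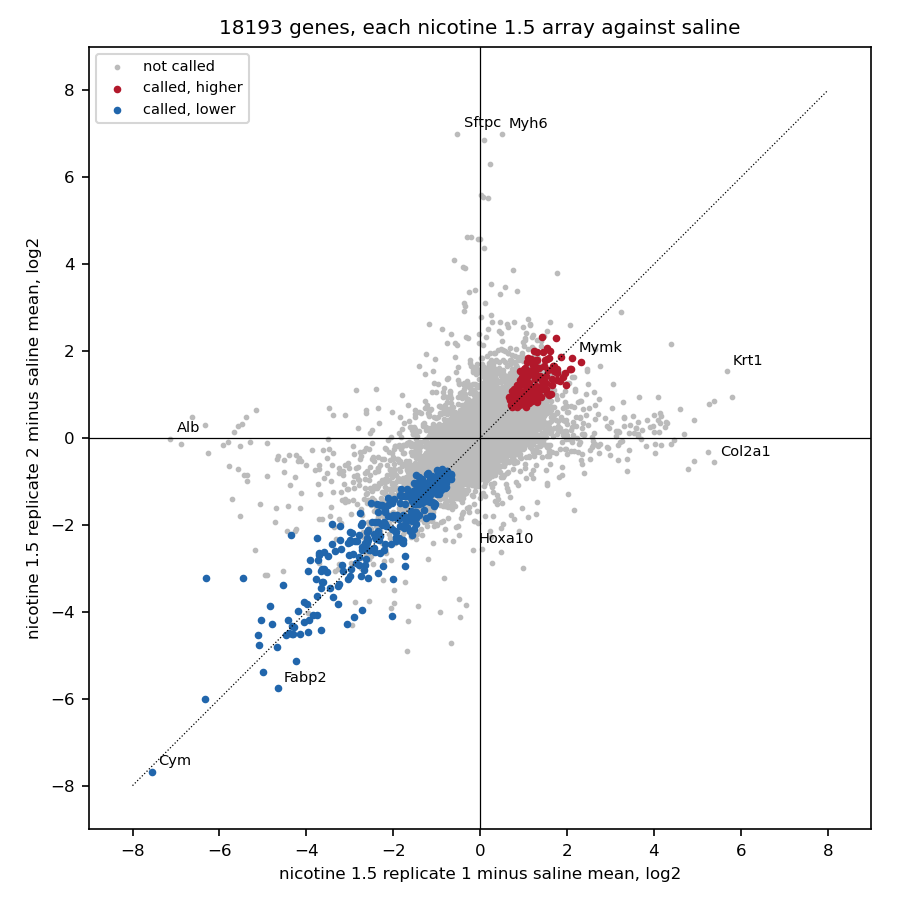
Difference of each nicotine 1.5 array from the saline mean, in log2 units, for 18193 genes, with called genes in red (higher) and blue (lower) and the dotted line at equal differences. Most called genes lie along the dotted line, and genes such as Sftpc, Myh6, Krt1, Col2a1 and Alb lie near an axis, far from saline in 1 array and close to it in the other.

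Replicate 1 alone carried the genes of cartilage and of cornified epithelium. Col2a1, the main collagen of cartilage, was at 11.80 in replicate 1 and 5.86 in replicate 2, against 7.24 and 5.60 in saline. Matn3, another cartilage matrix protein, was at 10.10 and 4.54, against 5.50 and 4.21, and Col10a1, the collagen of cartilage about to turn to bone, was at 8.37 and 4.40, against 4.24 and 4.27. Of 21 cartilage genes, 17 were at least 1 unit above both saline arrays in replicate 1 and none in replicate 2. Over all genes, 2.57% were above by that distance in replicate 1 and 2.15% in replicate 2.

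Krt1 and Krt10, the keratin pair of cornifying cells, showed the same pattern. Krt1 was at 11.98 and 7.85, against 6.96 and 5.64 in saline, and Krt10 was at 12.47 and 7.93, against 7.63 and 6.52. Calm4, a calmodulin-like protein of skin, was at 11.42 and 6.56, against 6.13 and 5.11. Of 22 genes of keratinized epithelium, 15 were above in replicate 1 and 1 in replicate 2, against 2.57% and 2.15% of all genes. No gene on either list was called. Desmosome genes split, with 10 of 13 above in replicate 1, while Dsg2, the desmoglein of simple epithelia, was at 6.38 and 7.14, against 8.72 and 8.65, and was called lower (difference -1.92 ± 0.35, adjusted p = 0.0438), with 1 of 3 other probe sets of the opposite sign. Its call was lost without any 1 of the saline, nicotine 1.5 or nicotine 3.0 arrays.

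Replicate 1 alone lacked liver transcripts. Alb, the main protein of blood plasma, was at 5.17 in replicate 1 and 12.29 in replicate 2, against 11.80 and 12.80 in saline. Ttr, a carrier of thyroid hormone, was at 5.64 and 11.55, against 11.59 and 12.20, and Fga, a chain of fibrinogen, was at 4.25 and 11.37, against 9.73 and 12.02. Of 21 liver genes, 20 were at least 1 unit below both saline arrays in replicate 1 and 4 in replicate 2. Over all genes, 3.32% were below by that distance in replicate 1 and 2.61% in replicate 2. Hnf4a, a transcription factor of liver and gut, was the only liver gene called, at 5.21 and 7.33, against 9.46 and 9.64 in saline (difference -3.28 ± 0.59, adjusted p = 0.0422), and it lost that call without either saline array or any 1 array of the higher doses. A different probe set of Hnf4a, 1 of 3, had the opposite sign.

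Replicate 2 alone carried genes of lung and heart. Sftpc, a surfactant protein of the lung, was at 4.65 in replicate 1 and 12.18 in replicate 2, against 5.50 and 4.85 in saline. Scgb1a1, a secreted protein of airway club cells, was at 4.54 and 11.31, against 4.40 and 4.48. Of 14 lung genes, 8 were at least 1 unit above both saline arrays in replicate 2 and none in replicate 1. Over all genes, 2.15% were above by that distance in replicate 2 and 2.57% in replicate 1. Myh6, the myosin of the atria and of the adult mouse heart, was at 5.38 and 11.87, against 4.96 and 4.79, and Tnni3, the heart troponin inhibitor, was at 4.33 and 9.25, against 4.30 and 4.94. Of 15 heart genes, 12 were above in replicate 2 and none in replicate 1. Ucp1, which makes heat in brown fat, was at 4.43 and 8.69, against 4.43 and 4.24. Of 14 brown fat genes, 5 were above in replicate 2 and none in replicate 1, where 2 were below. None of these lists had a called member.

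Replicate 2 also stood at least 1 unit above both saline arrays in 8 of 20 genes that glucocorticoids induce. Replicate 1 did so in 1 of 20, and 2 were below saline there by that distance. Over all genes, 2.15% were above in replicate 2 and 2.57% in replicate 1. The list had 1 call, Cdkn1a, described above. Zbtb16, a zinc finger factor, was at 8.02 and 10.03, against 7.80 and 7.02 in saline, and Cebpd, a transcription factor of fat and stress, was at 8.09 and 10.05, against 7.70 and 7.55. Neither of these 2 was called. Lung and heart markers were high in the same array, and their part in these levels was not tested.

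Genes low in replicate 2 alone included secreted proteins of the large intestine and 3 posterior Hox genes. Lypd8, a protein of colon cells, was at 8.91 in replicate 1 and 4.86 in replicate 2, against 10.28 and 8.87 in saline, and Zg16, a lectin of goblet cells, was at 7.93 and 4.41, against 8.86 and 7.66. Actg2, the actin of gut smooth muscle, was at 10.83 and 7.60, against 11.89 and 10.73. Hoxa10, a homeobox gene of the hind body and hindlimb, was at 7.28 and 4.88, against 7.21 and 7.69. Hoxa11 was at 7.07 and 4.50, against 6.44 and 6.71, and Hoxc10 was at 7.84 and 4.80, against 7.30 and 6.56. The other probe set of Hoxa10 above the level filter had a group difference of the opposite sign, 0.20. Of 14 genes of Hox groups 9 to 13, 5 were at least 1 unit below both saline arrays in replicate 2 and none in replicate 1. Over all genes, 2.61% were below by that distance in replicate 2 and 3.32% in replicate 1. No gene of these Hox groups was called. Not all colon genes were near saline in replicate 1: Lgals4, a lectin of the gut, was at 8.51 and 5.95, against 11.17 and 9.16, and Fcgbp, a protein of goblet cell mucus, was at 6.82 and 4.38, against 9.33 and 7.16.

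**Figure D5:**
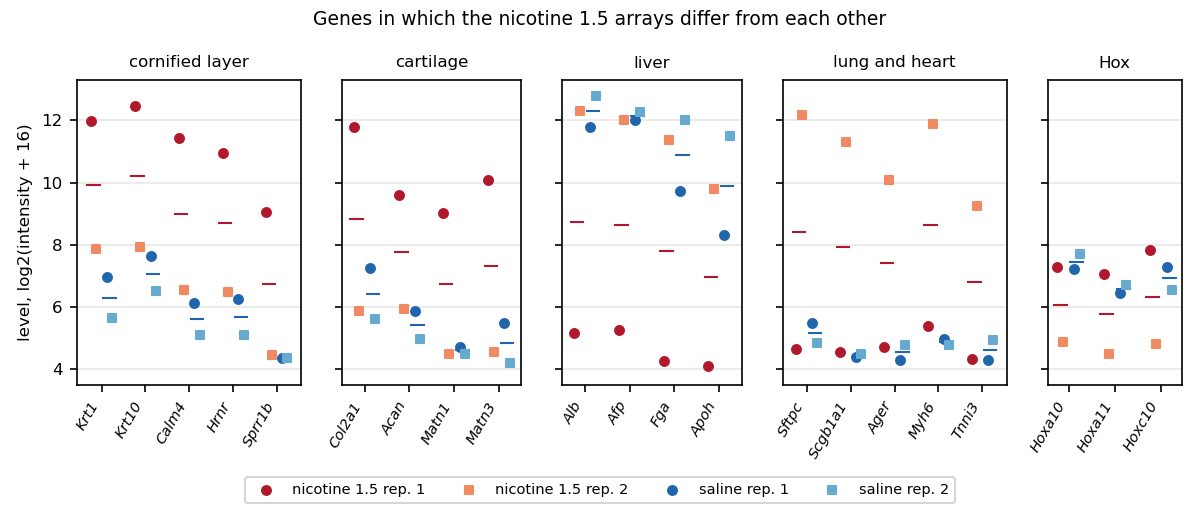
Levels of genes in which the nicotine 1.5 arrays differ from each other, as log2(intensity + 16), with a point for each array and a short line at each group mean, nicotine 1.5 left of saline. Replicate 1 is the high nicotine array for cornified layer, cartilage and Hox genes and replicate 2 for liver, lung and heart genes, with Sftpc at 4.65 and 12.18, against 5.50 and 4.85 in saline.

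Genes known for their part in palate formation did not pass. None of 20 palate and jaw patterning genes was called, where 0.918% of all genes were called higher and 1.73% lower. In 8 of the 20 both nicotine arrays were above both saline arrays, against 25.2% of all genes. Tgfb3 was at 8.29 and 7.69, against 6.94 and 6.32 in saline (difference 1.36 ± 0.27, adjusted p = 0.0567). Tgfbr2, its receptor, was at 9.75 and 9.39, against 9.12 and 8.68, with an adjusted p of 0.172. Jag2, a Notch ligand of the oral epithelium, was at 6.47 and 6.40, against 5.68 and 5.31 (adjusted p = 0.0689). For these 3 genes the groups did not overlap, as in the 25.2% of all genes given above.

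Other patterning genes gave closer or overlapping values. Meox2, a homeobox gene of limb and palate mesenchyme, was at 8.46 and 8.04, against 7.61 and 6.40 in saline (adjusted p = 0.139). Osr1, a zinc finger factor of palate and kidney, was at 8.05 and 7.36, against 6.99 and 5.97 (adjusted p = 0.195). Shh, a secreted signal of the palate ridges, was at 7.09 and 7.06, against 7.39 and 6.60, and Msx1, a homeobox factor of palate and teeth, was at 5.69 and 5.15, against 5.38 and 5.38. Snai2, a regulator of mesenchyme, was at 8.60 and 7.80, against 8.06 and 8.12, and Twist1, another, was at 7.66 and 6.21, against 6.76 and 5.64. The adjusted p was 0.536 for Twist1, 0.876 for Snai2, 0.948 for Shh and 0.95 for Msx1.

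Of all genes, 0.918% were called higher and 1.73% lower. No member was called on the lists of TGF-beta signalling (25 genes), BMP signalling (23), Wnt signalling (33), macrophages (14), endothelium (20) or fatty acid oxidation (17). Their median differences were 0.38, 0.07, 0.07, 0.11, 0.39 and -0.38 in that order, against 0.02 over all genes. A p that misses the threshold with 2 arrays a group does not show that these genes are alike in the 2 groups. In simulated data of this design, 76.3% of 4-fold changes were recovered, but 25.3% of 2-fold changes. That simulation assumed equal spread in all arrays and independent probe sets, so recovery in these data can differ.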

How the data were processed

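The deposited values are linear intensities for 45101 probe sets on 8 Affymetrix arrays, made by the authors. Their summarisation, background correction and scaling are not described in the labels or file headers read here. Median intensities lay between 20.7 and 25.4. The number of arrays limits the precision. Platform annotation gave 1 gene for 34945 probe sets, several for 932 and none for 9160, with 64 controls. Of those naming 1 gene, 34741 were matched to a RefSeq gene table by Entrez ID.

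Values were taken as log2(intensity + 16), which understates the folds of genes near background. Array medians spread by 0.174, over the limit of 0.1, and the arrays were quantile-normalized. The 4 group means came from 1 limma fit of the 8 arrays (version 3.58.1 in R 4.3.3, lmFit then eBayes, two-sided), which left 4 residual degrees of freedom and 6.99 with the prior. An exact permutation test of 2 arrays against 2 cannot go below p = 0.333, so no single value was tested in that way. The procedure was tested on simulated data in 5 runs of 34945 probe sets with 400 changed, and 5.4% of its calls were false. The simulation gave all arrays the same spread for a probe set and let probe sets vary independently. In the data, array weights, larger for arrays with less spread, were 0.695 for saline, 0.924 for nicotine 1.5 and 1.92 for nicotine 3.0. The simulated rates therefore need not hold for these data.

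Gene lists describe groups by counts and medians. The comparison, the lists and the genes were chosen with earlier results of these data known. Genes named are the 25 largest rises and 25 largest falls among called genes, up to 6 members of each list with the smallest p, members of tissue lists with the highest level in an array, 15 genes for each way in which 1 nicotine array alone left the saline range, and 12 genes named in advance. Atp4a, Ghrl, Hrc, Pgc, Lipf, Gast, Pax9, Tbx22, Meg3, Actb and the milk genes other than Csn2 fall outside this and were chosen after their values were seen. Of 482 called genes, 231 had more than 1 probe set, and in 60 of these the probe sets differed in direction.

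Alternatives were other scalings, added constants, filters, 1 probe set for each gene, 4 arrays alone, array weights, a prior that follows the level, the replicate number as a block, and each array left out.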

Additional observations from a re-analysis of the deposited data

How the results depend on the processing

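The number of called probe sets depended on the processing. It was 844 as reported, 284 of them higher and 560 lower. It was 202 with an added constant of 1, 403 with 1 probe set for each gene, 10 with the 4 arrays of nicotine 1.5 and saline alone and 460 with array weights. The higher calls were then 25, 129, 0 and 115 and the lower ones 177, 274, 10 and 345, in that order. With the 4 arrays alone, limma called no probe set higher at an adjusted p under 0.05. In the fit of all 8 arrays, 6372 of 34945 probe sets had an unadjusted p under 0.05, in either direction. That count includes probe sets expected to pass without any change and is not comparable with the calls. With the values as deposited 142 were higher, and with a prior that follows the level 177. Leaving out each array in turn gave 135 to 1785 calls, 9 to 676 higher and 126 to 1109 lower. With 1 sample left in a group, that sample is assumed to vary like the other groups. Alternatives chosen after seeing the data gave 337 calls, 99 higher and 238 lower, with 1 probe set for each gene and a level filter, and 172 higher calls without saline replicate 2 and nicotine 1.5 replicate 1. Genes with both nicotine arrays 1 unit above saline numbered 32 as deposited, 48 with arrays centred on their medians, and 191 and 19 with added constants of 1 and 64. With constants of 1 and 64, both arrays were below in 522 and 174, replicate 1 alone above in 661 and 220, replicate 2 alone above in 496 and 182, replicate 1 alone below in 619 and 143, and replicate 2 alone below in 383 and 65. Those 2 constants weigh signal near background differently by construction. The cause of the other changes was not tested. No sign was reversed among the 118 genes given with a difference. Of these, 115 were tested with the level filter at the 40th percentile and 95 with that at the 60th. Most of these fits could not reverse a sign. Filters, array weights, the prior, the block and the arrays of other doses left the difference itself unchanged. Leaving out a saline or nicotine 1.5 array cannot reverse it where the groups do not overlap.

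Same-numbered saline and nicotine 1.5 arrays deviated together with a correlation of 0.27, and the other pairs of groups gave -0.19 to 0.07. Each of those other pairs involves a higher dose. They therefore cannot decide whether saline and nicotine 1.5 arrays of the same number are paired. With the replicate block 341 probe sets were called, 60 higher and 281 lower.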
